A study of Homo sapiens with 34 samples.

Results

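The collagen genes are the genes whose products form the triple-helical proteins of the extracellular matrix. The 40 genes described here, from COL1A1 to COL27A1, were taken by symbol, 1 RefSeq row per gene, out of 23189 gene symbols in a table of RNA-seq read counts. The cells were H1, an established human embryonic stem cell (ESC) line, at days 0, 2, 6 and 10 of directed differentiation toward cardiomyocytes (CMs). Differentiation was started in all lines with CHIR99021, a GSK3β inhibitor, followed by the Wnt inhibitor IWP2 and later insulin. NKX2-5, ZEB2 and ZNF503 shRNA cells were H1 cells with a lentiviral shRNA against that gene under puromycin selection, 1 shRNA per gene. WT cells were H1 cells infected with an empty vector or with an shRNA to GFP, so every group carried a lentiviral vector. The study asked how loss of these transcription factors changes CM differentiation, and the question here is how the collagen genes changed with day and with each shRNA. There were 15 groups of 2 libraries, which the study calls biological replicates. The ZNF503 line was not analysed here at day 10, and the day 10 libraries of WT and of the ZEB2 line are replicates 3 and 4.

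Collagens are made of 3 chains that fold into a triple helix. Fibrillar collagens (types I, II, III, V, XI, XXIV and XXVII) form the banded fibrils of connective tissue and cartilage, type IV forms the network of basement membranes, and type VI forms beaded filaments around cells. Fibril-associated collagens sit on fibril surfaces, multiplexins (types XV and XVIII) carry sugar chains at basement membranes, type VII anchors epithelia, types VIII and X form short-chain networks, and transmembrane collagens span the cell membrane. In the heart, type I and III fibrils are made mainly by fibroblasts and type IV surrounds each muscle cell.

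The 30 libraries held 9189943 to 90814577 counts (median 32191176), and 3 counts in a library, used as the floor, stood for 0.0330 to 0.326 CPM, that is counts scaled to library size. Levels are CPM after TMM scaling over all 30 libraries. Levels of different genes are compared only per kilobase of transcript. Of the targeted transcripts, 1.30% ± 0.243 (SD, n = 2) of the WT level of NKX2-5 remained in its line at day 6, 58.5% ± 1.83 of ZEB2 and 6.98% ± 0.297 of ZNF503. At day 2 the NKX2-5 transcript was at 24.3% ± 34.3 of a WT level of 0.219 CPM, ZEB2 at 66.4% ± 5.43 of 17.9 CPM and ZNF503 at 90.1% ± 35.0 of 1.53 CPM. At day 0 the WT levels were 0.316, 0.118 and 0.106 CPM, near the floor, and the lines stood at 43.0% ± 3.34 for NKX2-5, 118% ± 86.7 for ZEB2 and 127% ± 31.4 for ZNF503. The day 0 differences of the ZEB2 and ZNF503 lines, and the day 2 differences of the ZNF503 line, were thus measured where no loss of the targeted transcript beyond the spread was seen. NKX2-5 was near the floor in WT at day 2 too, where the floor was 0.106 and 0.205 CPM in the WT libraries. The day 0 and day 2 differences of the NKX2-5 line were thus measured where its target was barely detected in WT. The summed level of 6 cardiomyocyte markers was 8743 to 11006 CPM in WT at day 6, 4929.5 to 5342 in ZEB2 shRNA cells, 151 to 207 in ZNF503 shRNA cells and 36.5 to 45.9 in NKX2-5 shRNA cells. These are bulk libraries, in which fewer cells of a type and less RNA per cell cannot be told apart.

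At day 0, before differentiation, type VI and type XVIII collagen led. COL6A1, an alpha chain of type VI, was highest per kilobase in WT at 46.9 ± 2.89 CPM per kb (SD, n = 2), followed by COL18A1, the source of endostatin, at 30.5 ± 0.981. COL6A2, COL9A3 and COL4A1 followed at 19.7 ± 0.420, 19.5 ± 2.36 and 17.3 ± 0.411, and these neighbours lay within their spread in the case of COL6A2 and COL9A3. Summed over all 40 genes, collagen RNA came to 1039 ± 40.9 CPM in WT. It was 3286 ± 121 CPM at day 2, 2882 ± 483 at day 6 and 6526 ± 133 at day 10.

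**Figure D1:**
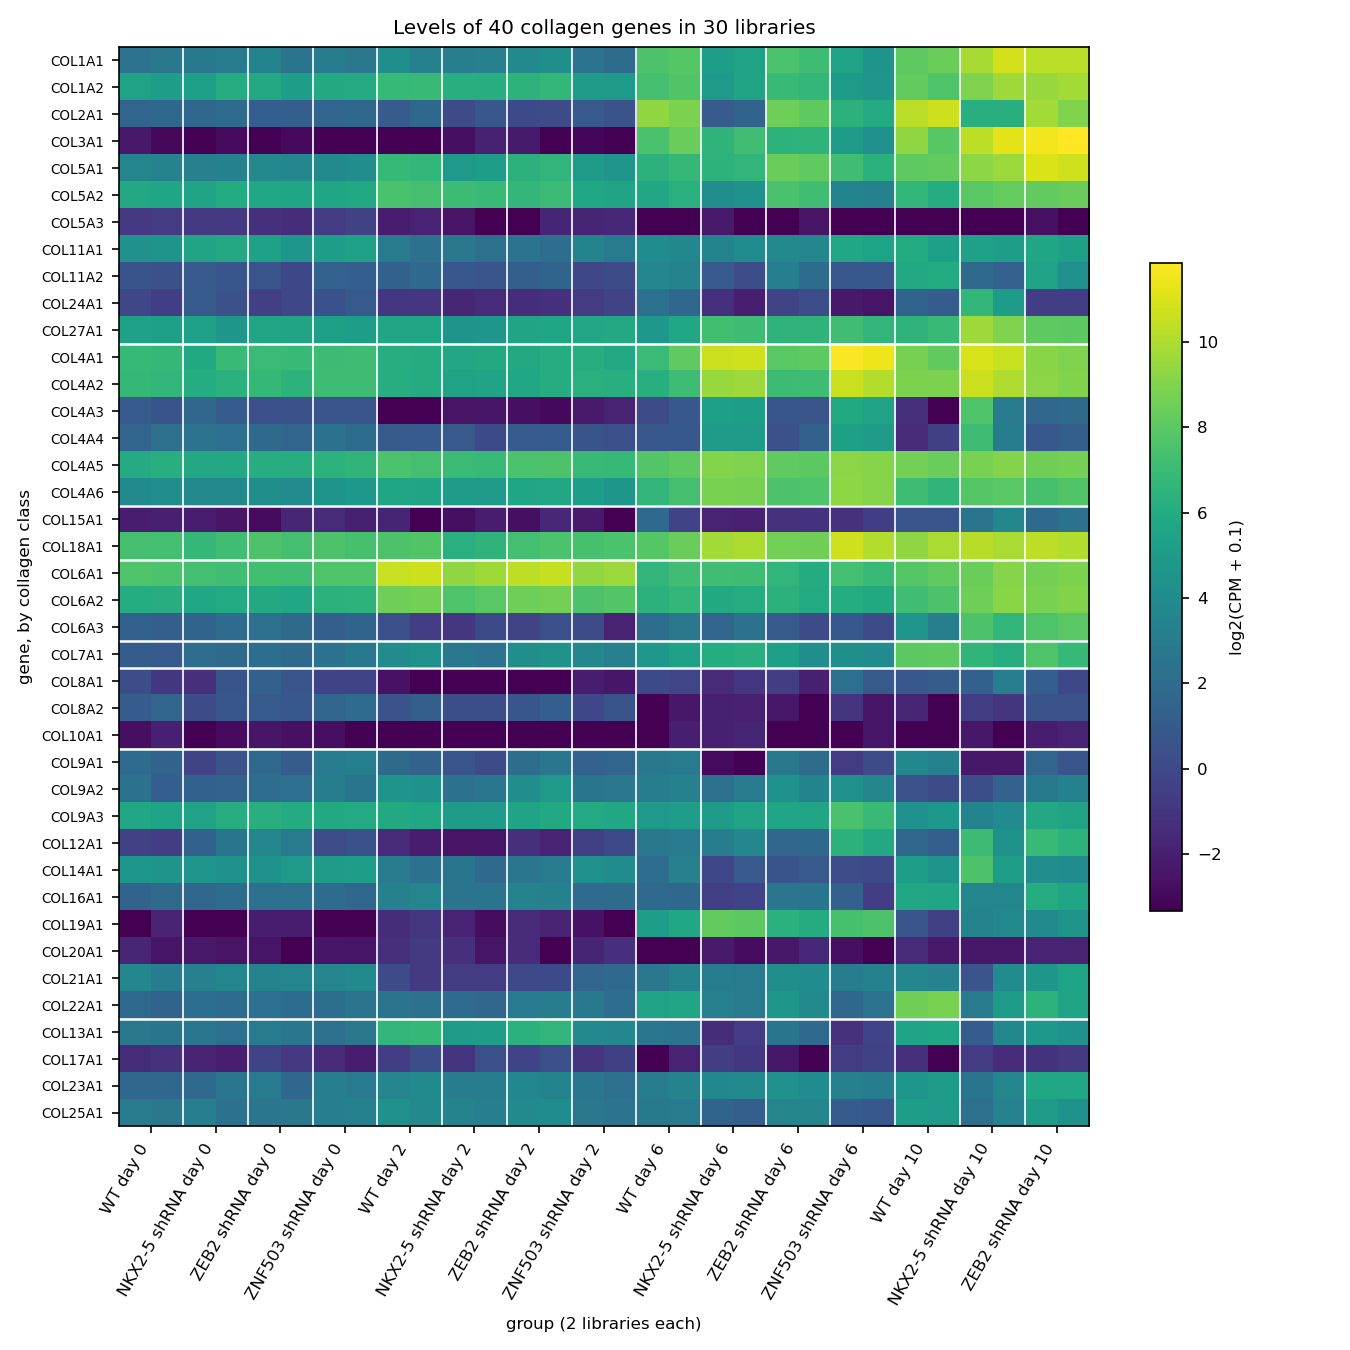
Levels of the 40 collagen genes in the 30 libraries, as log2(CPM + 0.1), with genes in rows by class (white lines separate the classes) and libraries in columns by group. Some fibrillar rows, such as COL1A1 and COL3A1, brighten from day 6, and others, such as COL5A3, do not. The COL6A1 row is brightest at day 2, and the COL4A1 and COL4A2 rows are brightest in NKX2-5 shRNA cells at days 6 and 10 and in ZNF503 shRNA cells at day 6.

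Before differentiation, the shRNA lines differed from WT in 3 to 9 collagen genes. In ZNF503 shRNA cells 9 of 36 members tested were higher and 0 lower, where 7.53% (4.01% higher and 3.52% lower) of all genes tested passed the threshold of 5% FDR (edgeR). Of the members, 16 were higher and 0 lower at an unadjusted p under 0.05, and 11 were higher and 0 lower by DESeq2. COL7A1, the anchoring fibril chain, was at 2.16 and 1.86 CPM in WT and 4.92 and 6.90 CPM in ZNF503 shRNA cells (log2 fold change 1.55, SE 0.23, adjusted p = 0.00368). COL11A1, a minor chain of cartilage fibrils, was at 20.1 and 23.3 and 34.9 and 41.3 CPM (log2 fold change 0.81, SE 0.20, adjusted p = 0.0342). In both, the lines did not overlap. COL4A5 went from 65.2 and 72.6 CPM in WT to 91.4 and 99.0 (log2 fold change 0.46, SE 0.10, adjusted p = 0.0166), COL4A6 from 15.2 and 17.6 to 23.4 and 26.8 (log2 fold change 0.61, SE 0.14, adjusted p = 0.0251) and COL4A2 from 109 and 101 to 141 and 143 (log2 fold change 0.43, SE 0.12, adjusted p = 0.0453). COL23A1, a transmembrane collagen, was at 3.26 and 3.30 in WT and 8.83 and 7.95 CPM in the line (log2 fold change 1.35, SE 0.35, adjusted p = 0.0388). COL9A1 was at 3.90 and 2.75 and 7.08 and 9.21 CPM (log2 fold change 1.29, SE 0.31, adjusted p = 0.03). COL14A1 was at 25.5 and 22.8 and 32.3 and 35.4 CPM (log2 fold change 0.48, SE 0.13, adjusted p = 0.0415). The 9 members that passed rose by 0.43 to 1.55, and COL5A1 stood at the threshold itself, with 11.7 and 11.0 CPM in WT and 14.97 and 17.1 in the line (log2 fold change 0.50, SE 0.14, adjusted p = 0.04997). With 1 library left out, these calls were largely lost: 1 member passed without ZNF503 shRNA replicate 1, 2 without WT replicate 1, and 0 without ZNF503 shRNA replicate 2 or without WT replicate 2. With the replicate number as a block in the model, 2 passed.

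In NKX2-5 shRNA cells at day 0, 3 members were higher and 4 lower of 36, against 15.9% (8.23% higher and 7.64% lower) of all genes, and in ZEB2 shRNA cells 2 were higher and 1 lower, against 3.93% (2.47% higher and 1.46% lower). COL12A1, which binds to type I fibrils, was the member that stood out in ZEB2 shRNA cells, at 0.667 and 0.576 CPM in WT and 11.98 and 7.36 CPM in the line (log2 fold change 3.93, SE 0.41, adjusted p = 0.000311). COL6A1 was at 206 and 189 CPM in WT, 158 and 146 in NKX2-5 shRNA cells (log2 fold change -0.39, SE 0.09, adjusted p = 0.0122) and 152 and 144 in ZEB2 shRNA cells (log2 fold change -0.44, SE 0.09, adjusted p = 0.0179). Both lines were below both WT libraries. In NKX2-5 shRNA cells COL11A1 rose from 20.1 and 23.3 CPM in WT to 45.7 and 56.7 (log2 fold change 1.22, SE 0.20, adjusted p = 0.00275). COL4A2 was at 68.1 and 82.3 CPM there, under its WT values of 109 and 101 (log2 fold change -0.50, SE 0.12, adjusted p = 0.0149). The NKX2-5 count was 8 or 11 without 1 of the shRNA libraries, and 2 or 3 without 1 of the WT libraries. Neither COL6A1 call held without either WT library, where the fold changes were -0.33 and -0.45 for NKX2-5 and -0.37 and -0.50 for ZEB2 shRNA cells, and the ZEB2 call was also lost without either ZEB2 shRNA library (-0.49 and -0.39). The COL4A2 call was lost without NKX2-5 replicate 1 (-0.36) or either WT library (-0.44 and -0.55).

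COL6A1 had the highest level per kilobase in WT at day 2, when mesendoderm forms, and COL13A1 the largest rise by fold from day 0 among the members named. Of 38 members tested 16 rose and 6 fell, against 44.1% (20.9% higher and 23.1% lower) of all genes called. COL6A1 was at 206 and 189 CPM at day 0 and 1509 and 1673 CPM at day 2 (log2 fold change 3.06, SE 0.17, adjusted p = 8.76e-07). COL6A2, its partner chain, went from 66.8 and 68.9 to 366 and 409.9 CPM (log2 fold change 2.56, SE 0.16, adjusted p = 1.99e-06). COL13A1, a transmembrane collagen of cell adhesion sites, went from 6.46 and 5.83 to 101 and 112 CPM (log2 fold change 4.16, SE 0.14, adjusted p = 4.05e-08). COL5A1, which nucleates type I fibrils, rose from 11.7 and 11.0 to 115 and 107 CPM (log2 fold change 3.34, SE 0.13, adjusted p = 1.06e-07), COL7A1 from 2.16 and 1.86 to 16.0 and 19.2 (log2 fold change 3.16, SE 0.22, adjusted p = 2.95e-06), and COL9A2 from 5.26 and 2.25 to 23.4 and 21.6 (log2 fold change 2.63, SE 0.33, adjusted p = 0.000158). The COL9A2 value was 3.35 without WT day 0 replicate 1. In all of these, each day 2 library lay above both day 0 libraries. The other 9 members at 5 CPM or more that rose had log2 fold changes of 0.78 (COL22A1) to 2.08 (COL23A1), COL5A2, COL1A1 and COL1A2 among them. In the other direction, COL21A1, fibril-associated, fell from 12.7 and 8.27 to 1.06 and 0.491 CPM (log2 fold change -3.60, SE 0.41, adjusted p = 8.22e-05), with -4.36 without WT day 2 replicate 1. COL14A1 fell from 25.5 and 22.8 to 7.20 and 5.15 CPM (log2 fold change -1.90, SE 0.35, adjusted p = 0.00156) and COL11A1 from 20.1 and 23.3 to 7.88 and 5.09 (log2 fold change -1.67, SE 0.28, adjusted p = 0.000860). COL4A3, a type IV chain of the kidney, lung and ear, was at 1.97 and 1.47 CPM at day 0 and had 0 counts in both day 2 libraries, at least 9.35-fold lower against the floor of 3 counts in a library. COL8A1 fell too, with a ratio of day 0 to day 2 of 18.2 (95% interval 5.05 to 151), an interval for counting error only. At day 2, COL6A1 reached 379 ± 27.6 CPM per kb in WT, ahead of COL6A2 at 113 ± 9.07 and COL18A1 at 37.4 ± 2.49.

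In WT, 7 of 11 fibrillar genes were above day 0 at day 6, when cardiac progenitors form, and 1 was below. From day 0 to day 6, 21 of 38 members rose and 6 fell, against 60.9% (31.3% higher and 29.6% lower) of all genes called. COL2A1, the main chain of cartilage fibrils, was at 2.94 and 3.35 CPM at day 0 and 649 and 458 CPM at day 6 (log2 fold change 7.49, SE 0.28, adjusted p = 1.17e-08). COL1A1, the main chain of type I collagen, went from 5.39 and 6.57 to 198 and 232 CPM (log2 fold change 5.20, SE 0.28, adjusted p = 1.41e-07). COL3A1, the chain of type III collagen, had 4 and 1 counts at day 0 and stood at 177 and 335 CPM at day 6, a ratio of 3882 (95% interval 1663 to 11955). All day 6 values of these 3 genes were far above those of day 0. COL7A1 was at 27.3 and 41.0 CPM at day 6 (log2 fold change 4.12, SE 0.21, adjusted p = 1.21e-07), and COL22A1, found at tissue junctions such as that of muscle and tendon, rose from 3.60 and 2.90 to 45.2 and 48.7 CPM (log2 fold change 3.88, SE 0.15, adjusted p = 1.21e-08). COL19A1, a rare fibril-associated chain, had 0 and 7 counts at day 0 and 34.7 and 51.8 CPM at day 6, a ratio of 468 (95% interval 227 to 1163). The other 13 members at 5 CPM or more rose by 0.55 (COL6A2) to 3.57 (COL12A1). At day 6, 3 members fell at levels above the minimum of 5 CPM: COL14A1 to 4.20 and 9.82 CPM (log2 fold change -1.73, SE 0.34, adjusted p = 0.00134), COL6A1 to 101 and 145 (log2 fold change -0.66, SE 0.16, adjusted p = 0.00562) and COL9A3 to 29.6 and 36.8 (log2 fold change -0.52, SE 0.16, adjusted p = 0.0157). COL6A1 thus rose at day 2 and was below its day 0 level at day 6. Without WT day 6 replicate 2 the COL14A1 value was -2.49. COL11A1 was at 16.3 and 13.2 CPM at day 6 (log2 fold change -0.53, SE 0.26, adjusted p = 0.1) and COL27A1, a fibrillar chain of cartilage, at 27.5 and 53.0, against 40.7 and 39.0 at day 0 (log2 fold change 0.05, SE 0.24, adjusted p = 0.876). The COL9A3 call was lost without WT day 0 replicate 1 (-0.41) or WT day 6 replicate 1 (-0.39).

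By day 10, 29 of 38 members were above day 0 and 6 below, against 73.8% (39.1% higher and 34.7% lower) of all genes called. COL2A1 stood at 1242 and 1639 CPM (log2 fold change 8.90, SE 0.30, adjusted p = 3.64e-09) and led per kilobase at 285 ± 55.5 CPM per kb, ahead of COL18A1 at 149 ± 42.6 and COL3A1 at 80.2 ± 51.3. COL22A1 reached 382 and 449 CPM (log2 fold change 7.05, SE 0.16, adjusted p = 4.83e-10), COL7A1 259 and 273 (log2 fold change 7.11, SE 0.23, adjusted p = 3.00e-09), COL1A1 277 and 351 (log2 fold change 5.77, SE 0.28, adjusted p = 4.74e-08) and COL11A2, a cartilage fibril chain, 57.9 and 64.3 (log2 fold change 5.56, SE 0.22, adjusted p = 1.14e-08). These were above every day 0 library of the same gene. COL3A1 was at 639.7 and 241 CPM, a ratio of 6670.3 (95% interval 2858 to 20543) to day 0. COL9A3, found in cartilage beside type II, was below day 0 at 20.8 and 26.9 CPM (log2 fold change -0.98, SE 0.17, adjusted p = 0.000346). The other 18 members at 5 CPM or more rose by 0.42 (COL6A1) to 4.72 (COL5A1). The summed level of 5 chondrogenic markers other than collagens was 1112 to 1122 CPM in WT at day 6 and 164 to 178 at day 10. Nearly all of it was HAPLN1, at 1101 ± 6.72 CPM at day 6 and 158 ± 6.81 at day 10. SOX9 was at 2.84 ± 0.162 and 5.54 ± 0.839 CPM and ACAN at 2.85 ± 0.114 and 2.82 ± 1.26. The part of these markers in the result was not tested. Of the partner genes, all 11 laminin, nidogen and proteoglycan genes of the basement membrane list were above day 0 at day 10, as were 11 of 15 genes for hydroxylation and folding of collagen chains, with 1 below.

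**Figure D2:**
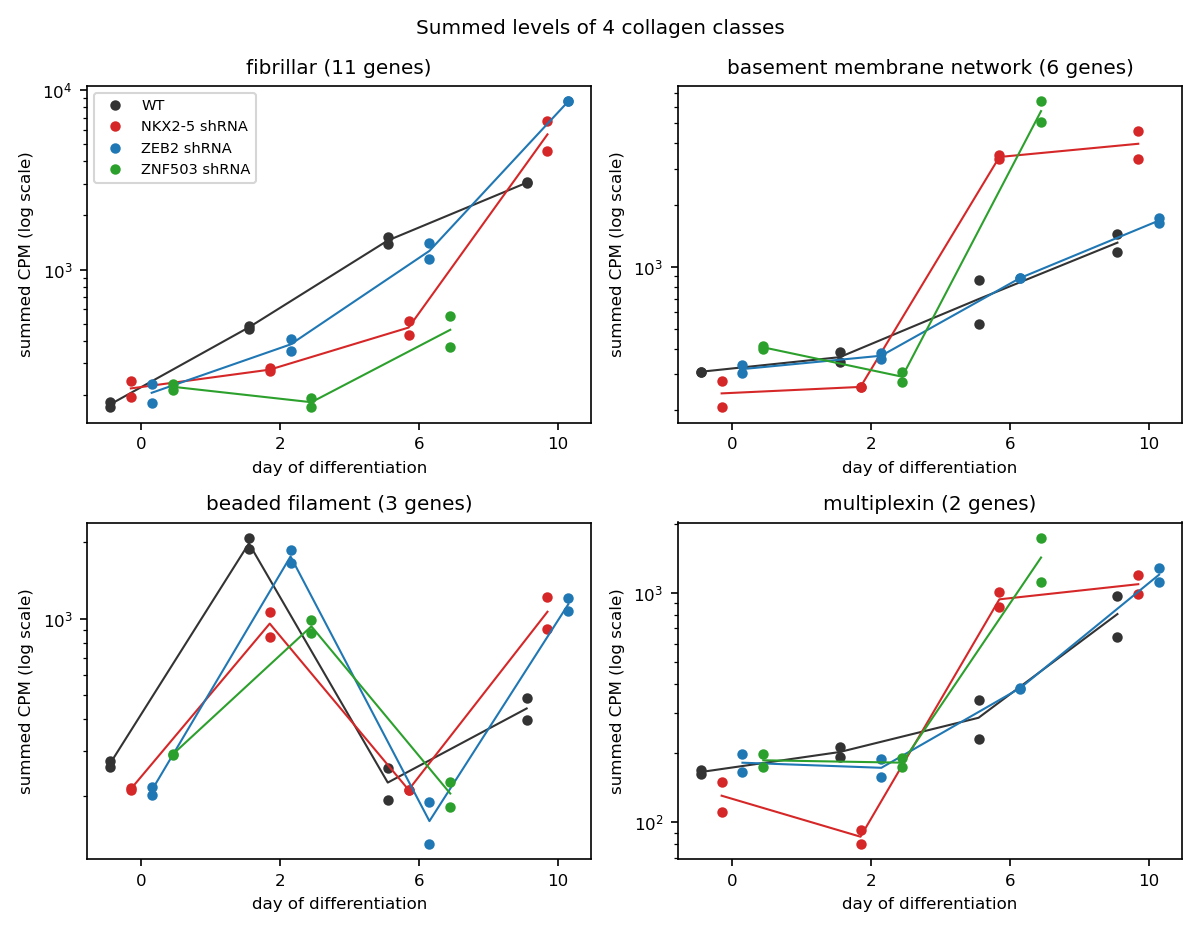
Summed levels (CPM, log axis) of 4 collagen classes by day of differentiation. Points are libraries, lines join group means, and colours mark WT, NKX2-5, ZEB2 and ZNF503 shRNA cells. The basement membrane sum of NKX2-5 and ZNF503 shRNA cells at day 6 lies above every WT library, and the fibrillar sum of NKX2-5 and ZEB2 shRNA cells at day 10 lies above both WT libraries.

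At day 2, collagen genes were lower in NKX2-5 and ZNF503 shRNA cells, and 1 member was called in ZEB2 shRNA cells. In NKX2-5 shRNA cells 0 of 34 members tested were higher and 21 lower, where 26.7% (13% higher and 13.6% lower) of all genes were called. Of the members, 0 were higher and 23 lower at an unadjusted p under 0.05, and 0 were higher and 21 lower by DESeq2. In ZNF503 shRNA cells 3 were higher and 16 lower, against 26.9% (13.1% higher and 13.8% lower) of all genes. Both lines were compared with the same 2 WT libraries. COL13A1 was at 101 and 112 CPM in WT, 31.9 and 35.1 in NKX2-5 shRNA cells (log2 fold change -1.70, SE 0.12, adjusted p = 1.18e-06) and 13.9 and 13.0 in ZNF503 shRNA cells (log2 fold change -3.04, SE 0.13, adjusted p = 1.31e-09). COL5A1 was at 115 and 107 CPM in WT, 29.9 and 34.6 in NKX2-5 (log2 fold change -1.82, SE 0.13, adjusted p = 1.25e-06) and 31.7 and 24.0 in ZNF503 shRNA cells (log2 fold change -2.04, SE 0.13, adjusted p = 7.10e-08). COL9A2 was at 23.4 and 21.6 CPM in WT, 5.10 and 6.19 in NKX2-5 (log2 fold change -2.04, SE 0.22, adjusted p = 3.35e-05) and 5.92 and 6.39 in ZNF503 shRNA cells (log2 fold change -1.94, SE 0.22, adjusted p = 1.51e-05). The 3 genes were thus below WT in every library of both lines. COL6A1 was at 636 and 811 CPM in NKX2-5 shRNA cells, against 1509 and 1673 in WT (log2 fold change -1.17, SE 0.12, adjusted p = 1.85e-05), and it was lower in ZNF503 shRNA cells as well (log2 fold change -1.19). COL18A1 was at 192 and 212 CPM in WT, 80.4 and 92.2 in NKX2-5 (log2 fold change -1.26, SE 0.11, adjusted p = 7.34e-06) and 173 and 189.9 in ZNF503 shRNA cells (log2 fold change -0.21, SE 0.11, adjusted p = 0.188). COL7A1 was at 6.61 and 5.45 CPM in NKX2-5 shRNA cells and 16.0 and 19.2 in WT (log2 fold change -1.56, SE 0.19, adjusted p = 6.67e-05). COL1A1, COL1A2 and COL5A2 were lowest in ZNF503 shRNA cells. COL1A2 was at 113 and 119 CPM in WT and 32.1 and 28.7 there (log2 fold change -1.99, SE 0.11, adjusted p = 1.03e-08), COL5A2 at 177 and 168 and 54.5 and 46.7 (log2 fold change -1.82, SE 0.10, adjusted p = 1.65e-08), and COL1A1 at 18.9 and 9.81 and 5.43 and 4.09 (log2 fold change -1.64, SE 0.25, adjusted p = 0.000217). COL14A1, fibril-associated, went the other way, from 7.20 and 5.15 in WT to 19.3 and 15.8 CPM (log2 fold change 1.44, SE 0.22, adjusted p = 0.000224). The other 12 named members in NKX2-5 shRNA cells had log2 fold changes from -0.43 (COL5A2) to -1.11 (COL27A1), and the other 8 in ZNF503 shRNA cells from -0.63 (COL4A5) to -1.58 (COL25A1).

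In ZEB2 shRNA cells at day 2 the type V chain COL5A2 was the 1 member called, at 108 and 129 CPM against 177 and 168 in WT (log2 fold change -0.59, SE 0.10, adjusted p = 0.0159), where 0.490% of all genes were called. It did not pass without ZEB2 shRNA replicate 1 (-0.46), WT replicate 1 (-0.56) or WT replicate 2 (-0.61). Over all genes, 42.0% of the calls in this comparison were higher, and 53.9% with DESeq2. The machinery that modifies collagen moved with the collagens in ZNF503 shRNA cells at day 2, where 10 of 15 hydroxylation and folding genes tested were lower and 1 higher. Of all genes in that comparison, 13.8% were lower and 13.1% higher. SERPINH1, the collagen chaperone HSP47, was at 201 ± 20.8 CPM in WT and 138 ± 2.40 CPM in ZNF503 shRNA cells, log2 fold change -0.59, SE 0.12, adjusted p = 0.00217. Of the same list 2 were lower and 1 higher in NKX2-5 shRNA cells, where the basement membrane partners had 5 lower of 11. Over all genes 13.6% were lower and 13% higher in NKX2-5 shRNA cells. HSPG2, which encodes perlecan, was at 195 ± 11.2 CPM in WT and 76.2 ± 8.02 CPM in NKX2-5 shRNA cells, log2 fold change -1.39, SE 0.11, adjusted p = 1.81e-06. The summed level of 6 fibroblast and mesenchyme markers was 87.5 to 89.0 CPM in ZNF503 shRNA cells, 535 to 574 in NKX2-5 shRNA cells and 421 to 431 in WT, with PRRX1 at 0 counts in WT. Most of it was PDGFRA, lower in ZNF503 and higher in NKX2-5 shRNA cells, while THY1 went from 29.2 ± 0.229 CPM in WT to 51.1 ± 1.96 in ZNF503 and 22.6 ± 2.24 in NKX2-5 shRNA cells. The pluripotent marker sum was 1502 to 1609 CPM in ZNF503 shRNA cells and 915 to 937 in WT, with all 4 markers higher. Their part in these results was not tested.

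Tested directly at day 2, NKX2-5 and ZNF503 shRNA cells differed in 20 of 34 members, 8 higher in NKX2-5 and 12 lower, against 39.5% (19.8% higher and 19.7% lower) of all genes. COL5A2 and both type I chains were higher in NKX2-5 shRNA cells. COL5A2 was at 136 and 126 CPM in NKX2-5 and 54.5 and 46.7 in ZNF503 shRNA cells (log2 fold change 1.39, SE 0.10, adjusted p = 1.28e-07), COL1A2 was at 74.9 and 69.5 CPM in NKX2-5 and 32.1 and 28.7 in ZNF503 shRNA cells (log2 fold change 1.27, SE 0.11, adjusted p = 4.62e-07), and COL1A1 was at 8.79 and 9.86 and 5.43 and 4.09 CPM (log2 fold change 0.96, SE 0.25, adjusted p = 0.00714). The transmembrane collagens did the same. COL13A1 was at 31.9 and 35.1 CPM in NKX2-5 and 13.9 and 13.0 in ZNF503 shRNA cells (log2 fold change 1.34, SE 0.13, adjusted p = 1.66e-06), COL25A1 at 11.0 and 8.996 and 6.30 and 5.35 (log2 fold change 0.79, SE 0.19, adjusted p = 0.00404), and COL23A1 at 8.59 and 8.42 and 6.01 and 4.77 (log2 fold change 0.66, SE 0.18, adjusted p = 0.011). Lower in NKX2-5 shRNA cells were COL14A1 at 5.83 and 3.71 against 19.3 and 15.8 CPM (log2 fold change -1.84, SE 0.22, adjusted p = 1.45e-05) and COL27A1 at 22.8 and 25.05 against 55.3 and 57.4 (log2 fold change -1.22, SE 0.11, adjusted p = 6.94e-07). COL18A1 (log2 fold change -1.05, SE 0.11, adjusted p = 4.88e-06) was lower as well, with the values given above. COL7A1 stood at 6.61 and 5.45 and 12.8 and 9.54 CPM (log2 fold change -0.87, SE 0.18, adjusted p = 0.00178), COL9A3 at 33.5 and 32.7 and 63.1 and 55.7 (log2 fold change -0.82, SE 0.11, adjusted p = 6.30e-05), and COL4A2 at 43.2 and 47.4 and 78.1 and 76.5 (log2 fold change -0.75, SE 0.12, adjusted p = 0.000155). These 12 genes were picked by this test, so that the libraries of the 2 lines did not overlap in them adds no support. Without ZNF503 shRNA replicate 2 the COL1A1 (0.82) and COL23A1 (0.55) calls were lost.

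At day 6 all 6 type IV genes were higher in both NKX2-5 and ZNF503 shRNA cells, and 7 of 10 fibrillar genes tested were lower in each. In NKX2-5 shRNA cells 12 of 36 members were higher and 15 lower, where 49.1% (24.4% higher and 24.7% lower) of all genes were called, and in ZNF503 shRNA cells 14 were higher and 17 lower, where 55.7% (27.2% higher and 28.5% lower) were called. The 2 lines share their WT libraries. COL4A1, which with COL4A2 makes up the type IV collagen of nearly all basement membranes, was at 129 and 287 CPM in WT, 1587 and 1762 in NKX2-5 (log2 fold change 3.00, SE 0.28, adjusted p = 2.56e-06) and 3475 and 2784 in ZNF503 shRNA cells (log2 fold change 3.91, SE 0.29, adjusted p = 4.97e-07). COL4A2 was at 71.6 and 139.9 CPM in WT, 736 and 778 in NKX2-5 (log2 fold change 2.83, SE 0.25, adjusted p = 2.02e-06) and 1601 and 1123 in ZNF503 shRNA cells (log2 fold change 3.68, SE 0.26, adjusted p = 3.89e-07). WT replicate 2 was above WT replicate 1 in both genes, and every shRNA library lay above both WT libraries. Without WT replicate 2 the COL4A1 values were 3.67 and 4.57. COL4A3 and COL4A4, whose chains build the mature glomerular network, rose by more. COL4A3 was at 1.04 and 1.66 CPM in WT, 37.8 and 36.3 in NKX2-5 (log2 fold change 4.71, SE 0.24, adjusted p = 1.65e-08) and 59.6 and 42.7 in ZNF503 shRNA cells (log2 fold change 5.18, SE 0.24, adjusted p = 1.14e-08). COL4A4 was at 1.60 and 1.73 CPM in WT, 29.5 and 31.4 in NKX2-5 (log2 fold change 4.17, SE 0.26, adjusted p = 8.66e-08) and 39.6 and 33.9 in ZNF503 shRNA cells (log2 fold change 4.45, SE 0.26, adjusted p = 7.71e-08). Both genes were low in every WT library and far above it in every library of the 2 lines. COL4A5 rose by 1.02 and 1.22, and COL4A6 by 1.67 and 2.11, in NKX2-5 and ZNF503 shRNA cells in that order. Per kilobase, COL4A1 led all members in both lines, at 256 ± 18.9 and 479 ± 74.7 CPM per kb, where COL2A1 led in WT at 109 ± 26.7.

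The type IV genes lie head to head in pairs, with RefSeq starts of each pair close together. In GRCh37, COL4A1 (chr13:110801310-110959504, minus strand) and COL4A2 (chr13:110958159-111165556, plus strand) lie on chromosome 13, COL4A4 (chr2:227867430-228029169, minus) and COL4A3 (chr2:228029340-228179508, plus) on chromosome 2, and COL4A6 (chrX:107398837-107682727, minus) and COL4A5 (chrX:107683068-107940775, plus) on the X chromosome. The spans of COL4A1 and COL4A2 cover all GENCODE transcripts and overlap, while their RefSeq starts used below lie apart. Because both genes of each pair rose together, the bases between their starts are shown, from RefSeq in GRCh38.p14, plus strand, 5′ to 3′, with CCAAT and GGGCGG on either strand in capitals. For the first pair the 126 bases lie at chr13:110307158-110307283 and are all the bases between the starts. For the second, 150 of 418 bases nearest to COL4A3 are shown, at chr2:227164474-227164623, and for the third 250 of 379 nearest to COL4A5, at chrX:108439588-108439837. For COL4A6 the RefSeq start nearest to COL4A5 was taken. The transcript used for the COL4A6 level per kilobase starts further away, at chrX:107681652 in GRCh37. Which start these cells used was not tested.
COL4A1 to COL4A2: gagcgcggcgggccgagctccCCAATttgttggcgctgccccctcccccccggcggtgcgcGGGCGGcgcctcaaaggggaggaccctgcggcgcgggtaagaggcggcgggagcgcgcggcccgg
COL4A4 to COL4A3: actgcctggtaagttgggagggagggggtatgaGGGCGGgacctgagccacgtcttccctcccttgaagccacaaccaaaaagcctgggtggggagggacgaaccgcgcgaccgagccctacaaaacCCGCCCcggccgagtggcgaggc
COL4A6 to COL4A5: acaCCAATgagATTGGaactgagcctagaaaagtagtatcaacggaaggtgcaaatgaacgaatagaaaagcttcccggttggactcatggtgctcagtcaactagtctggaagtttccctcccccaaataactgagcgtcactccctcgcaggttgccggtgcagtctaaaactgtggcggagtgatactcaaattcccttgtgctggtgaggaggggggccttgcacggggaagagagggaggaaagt
The first stretch held 1 CCAAT and 1 GGGCGG, the second 2 GGGCGG (1 of them read on the minus strand as CCGCCC), and the third 2 CCAAT (1 read as ATTGG). No stretch held TATAAA on either strand. Of the 35116 RefSeq promoters, windows of the same 126, 150 and 250 bases before the start held a CCAAT in 21.1%, 23.5% and 32.0%, a GGGCGG in 34.6%, 36.8% and 42.6%, and a TATAAA in 5.87%, 6.71% and 10.7%. These matches describe the letters only.

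COL18A1 was also higher in both lines at day 6, and the other multiplexin, COL15A1, was not. COL18A1 was at 227 and 339 CPM in WT, 869.5 and 1002 in NKX2-5 (log2 fold change 1.72, SE 0.21, adjusted p = 2.50e-05) and 1736 and 1112 in ZNF503 shRNA cells (log2 fold change 2.33, SE 0.21, adjusted p = 2.78e-06). Of its transcript, 28.9% overlaps exons of SLC19A1 on the opposite strand, and since the counting is not stated to use strand its level is uncertain by reads of that gene. Of 11 other basement membrane genes, 7 were higher and 3 lower in NKX2-5, and 6 higher and 3 lower in ZNF503 shRNA cells. Over all genes 24.4% were higher and 24.7% lower in NKX2-5, and 27.2% higher and 28.5% lower in ZNF503 shRNA cells. LAMB1, a laminin chain, was at 466 ± 158 CPM in WT and 2093 ± 27.8 CPM in NKX2-5 shRNA cells, log2 fold change 2.16, SE 0.19, adjusted p = 1.36e-06. HSPG2 was at 69.0 ± 33.5 CPM in WT and 898 ± 419.6 CPM in ZNF503 shRNA cells, log2 fold change 3.69, SE 0.36, adjusted p = 4.67e-06. Nidogen 2 went against the list: NID2 was at 343 ± 41.9 CPM in WT and 11.5 ± 1.03 CPM in NKX2-5 shRNA cells, log2 fold change -4.90, SE 0.22, adjusted p = 5.12e-09, with a log2 fold change of -5.09 in ZNF503 shRNA cells. COL27A1 was at 27.5 and 53.0 CPM in WT and 151 and 141 in NKX2-5 shRNA cells (log2 fold change 1.84, SE 0.24, adjusted p = 4.26e-05), and COL19A1 at 34.7 and 51.8 and 301 and 265 (log2 fold change 2.70, SE 0.18, adjusted p = 1.86e-07). These fibrillar and fibril-associated genes were higher in ZNF503 shRNA cells too, by 1.61 and 2.10. COL12A1 parted the lines: it was at 6.72 and 7.84 CPM in WT, 8.60 and 13.1 in NKX2-5 (log2 fold change 0.57, SE 0.24, adjusted p = 0.0611) and 86.9 and 57.0 in ZNF503 shRNA cells (log2 fold change 3.29, SE 0.24, adjusted p = 5.15e-07).

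COL2A1, COL9A1, COL11A2 and the chains of type I and III collagen were lower in both lines at day 6. COL2A1 was at 649 and 458 CPM in WT, 1.99 and 2.80 in NKX2-5 (log2 fold change -7.82, SE 0.29, adjusted p = 1.57e-09) and 87.6 and 61.1 in ZNF503 shRNA cells (log2 fold change -2.90, SE 0.22, adjusted p = 6.25e-07). COL9A1, which decorates type II fibrils, was at 6.98 and 7.72 CPM in WT and had 1 and 0 counts in NKX2-5 shRNA cells, a ratio of WT to NKX2-5 of 567 (95% interval 102 to 22389.6). In ZNF503 shRNA cells it was at 0.560 and 1.01 CPM (log2 fold change -3.20, SE 0.39, adjusted p = 2.88e-05). COL11A2 was at 13.0 and 10.9 CPM in WT, 1.76 and 1.08 in NKX2-5 (log2 fold change -3.11, SE 0.37, adjusted p = 1.97e-05) and 1.63 and 1.66 in ZNF503 shRNA cells (log2 fold change -2.86, SE 0.37, adjusted p = 4.88e-05). The 3 genes were thus below WT in every library of both lines. Other chains of cartilage went the other way, COL27A1 in both lines, as above, and COL11A1 (log2 fold change 1.70) and COL9A3 (log2 fold change 2.15) in ZNF503 shRNA cells. COL1A1 was at 198 and 232 CPM in WT and 36.0 and 42.3 in NKX2-5 shRNA cells (log2 fold change -2.46, SE 0.24, adjusted p = 4.18e-06), and lower in ZNF503 shRNA cells (log2 fold change -2.71). COL3A1 was at 177 and 335 CPM in WT and 32.6 and 20.0 in ZNF503 shRNA cells (log2 fold change -3.29, SE 0.31, adjusted p = 3.61e-06), and lower in NKX2-5 shRNA cells (log2 fold change -1.11). COL22A1 was at 45.2 and 48.7 CPM in WT, 9.60 and 7.37 in NKX2-5 (log2 fold change -2.48, SE 0.27, adjusted p = 9.39e-06) and 3.41 and 5.47 in ZNF503 shRNA cells (log2 fold change -3.39, SE 0.29, adjusted p = 1.61e-06). COL13A1 was at 6.11 and 5.49 CPM in WT, 0.294 and 0.521 in NKX2-5 (log2 fold change -3.75, SE 0.40, adjusted p = 8.17e-06) and 0.356 and 0.729 in ZNF503 shRNA cells (log2 fold change -3.37, SE 0.41, adjusted p = 2.82e-05), with -4.02 for the second without ZNF503 shRNA replicate 2. In COL1A1, COL3A1, COL22A1 and COL13A1 both lines lay below WT. The other members called and at 5 CPM or more, besides those above, were COL7A1 (1.06), COL23A1 (0.54), COL6A2 (-0.64), COL25A1 (-1.51), COL5A2 (-1.76), COL1A2 (-2.32) and COL14A1 (-2.40) in NKX2-5 shRNA cells, and COL6A2 (-0.64), COL7A1 (-0.99), COL6A3 (-1.98), COL25A1 (-2.00), COL5A2 (-2.69), COL1A2 (-2.78) and COL14A1 (-2.80) in ZNF503 shRNA cells. Type VII moved in opposite directions against WT in the 2 lines.

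Genes that modify and process collagen chains moved in both directions at day 6. In the cleavage and cross-linking list 3 of 13 genes were higher and 6 lower in NKX2-5, and 4 higher and 6 lower in ZNF503 shRNA cells. Of 15 hydroxylation and folding genes 5 were higher in NKX2-5 and 9 in ZNF503 shRNA cells, with 2 lower in each. Of all genes, 24.4% were higher and 24.7% lower in NKX2-5, and 27.2% and 28.5% in ZNF503 shRNA cells. PCOLCE, an enhancer of procollagen cleavage, was at 33.8 ± 1.26 CPM in WT and 1.79 ± 0.949 CPM in NKX2-5 shRNA cells, log2 fold change -4.31, SE 0.40, adjusted p = 2.97e-06. PLOD2, which hydroxylates the lysines used in cross-links, was at 197 ± 1.51 CPM in WT and 57.4 ± 1.34 CPM in NKX2-5 shRNA cells, log2 fold change -1.79, SE 0.15, adjusted p = 1.02e-06. These 2 genes were among those that fell.

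Markers of other cell types also differed at day 6. The sum of 6 endoderm markers was 367 to 804 CPM in WT, 6051 to 6096 in NKX2-5 and 4416 to 4497 in ZNF503 shRNA cells, with 6 and 5 of the 6 higher. The 4 epithelial markers summed to 1799 to 1804 CPM in WT, 2433 to 2633 in NKX2-5 and 2789.6 to 2986 in ZNF503 shRNA cells. CDH1, EPCAM and KRT19 were higher in both lines and KRT8 was lower in NKX2-5 shRNA cells. CDH1, EPCAM and KRT19 were also higher than WT in ZEB2 shRNA cells, where the epithelial sum was 1915 to 2088 CPM. The fibroblast and mesenchyme sum was 862 to 974.6 CPM in WT, 895 to 936 in NKX2-5 and 637 to 714 in ZNF503 shRNA cells. It was nearly all PDGFRA, at 879 ± 83.8, 908 ± 29.6 and 664 ± 56.1 CPM, while the other 5 markers were lower in both lines, such as TWIST1 at 13.2 ± 0.221, 0.438 ± 0.109 and 1.502 ± 0.110 CPM and PDGFRB at 9.25 ± 1.31, 2.64 ± 0.274 and 3.50 ± 1.74. The chondrogenic sum was 1112 to 1122 CPM in WT, 195 to 197 in NKX2-5 and 119.5 to 149 in ZNF503 shRNA cells, and its fall was that of HAPLN1, from 1101 ± 6.72 to 183 ± 0.207 and 108 ± 23.6 CPM. SOX9 was higher in NKX2-5 shRNA cells at 4.98 ± 0.492 against 2.84 ± 0.162 CPM, MATN3 was lower there and higher in ZNF503 shRNA cells, and ACAN was at 2.85 ± 0.114, 2.94 ± 0.0567 and 3.39 ± 0.0321 CPM. The sum of 5 endothelial markers was 427 to 498 CPM in WT, 175 to 177 in NKX2-5 and 114 to 149 in ZNF503 shRNA cells. Its fall was that of KDR, from 436 ± 41.5 to 151 ± 1.66 and 107 ± 18.2 CPM, and none of the other 4 was called in either line, CDH5 being at 13.5 ± 4.14, 12.1 ± 0.219 and 11.2 ± 3.05 CPM. The part of these cell types in the collagen differences was not tested.

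**Figure D3:**
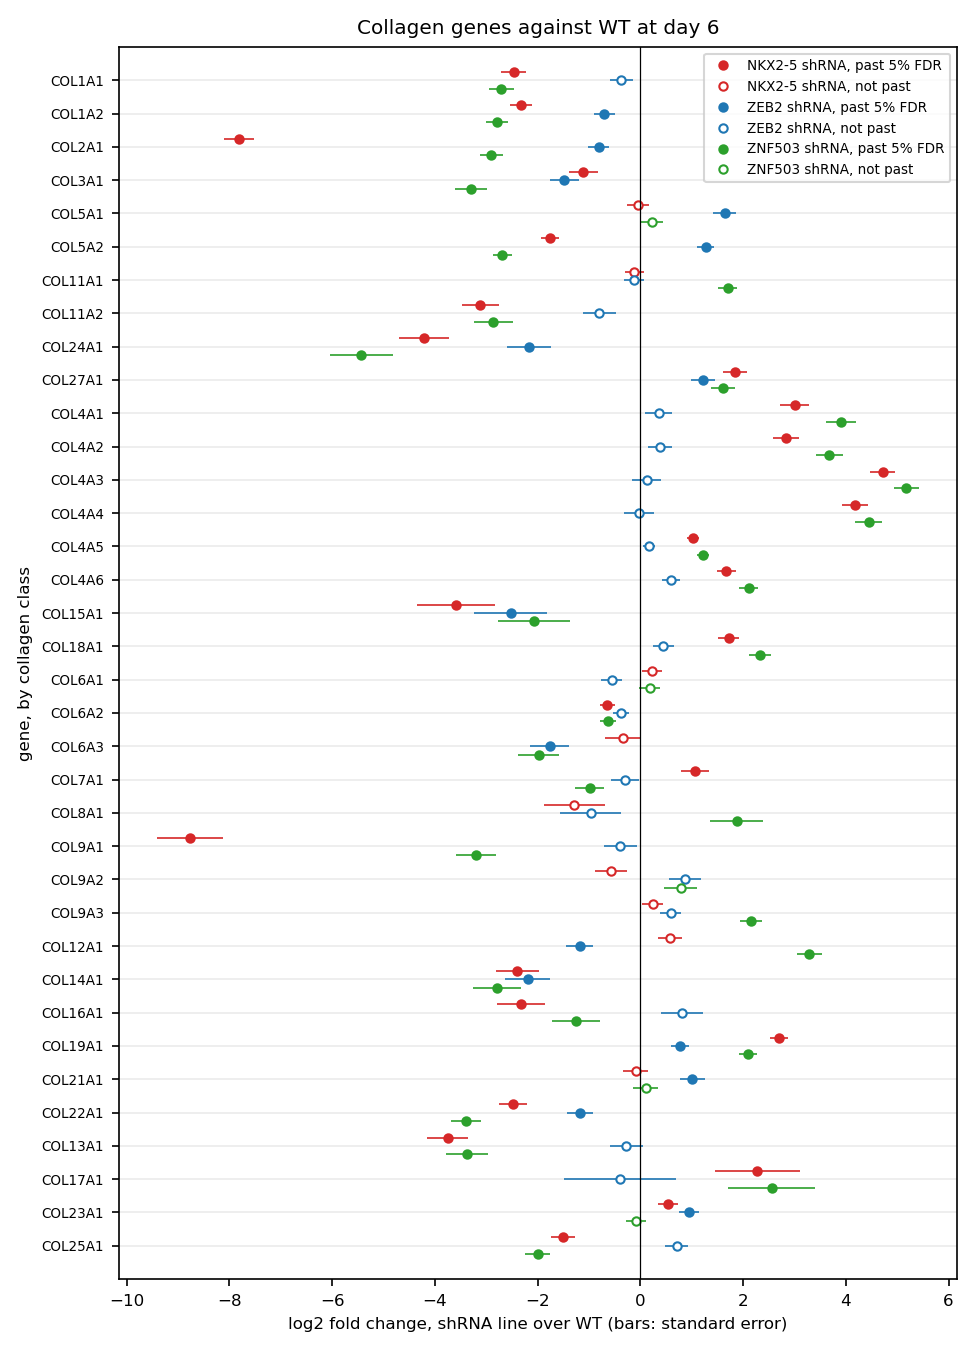
Log2 fold change of each shRNA line over WT at day 6 for the members tested, by class, with bars of 1 standard error. Filled points passed 5% FDR and open points did not. The 6 type IV points of NKX2-5 and ZNF503 shRNA cells are filled and right of 0, and those of ZEB2 shRNA cells are open.

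In ZEB2 shRNA cells at day 6, the type V chains COL5A1 and COL5A2 were higher. Of 36 members 6 were higher and 9 lower, against 11% (5.67% higher and 5.33% lower) of all genes. None of the 6 type IV genes was called by edgeR, while 1 was higher and 0 lower at an unadjusted p under 0.05, and 1 was higher and 0 lower by DESeq2. With 11% of all genes called, 0 of 6 alone does not set type IV apart. COL4A1 was at 256 and 274 CPM, within the range of WT (log2 fold change 0.35, SE 0.26, adjusted p = 0.451). COL4A6, not called, was at 199 and 206 CPM, above the WT values of 102 and 167. COL5A1 was at 87.5 and 110.2 CPM in WT and 336 and 278 in the line (log2 fold change 1.64, SE 0.22, adjusted p = 0.000437), and COL5A2 at 55.4 and 79.1 and 179 and 144 (log2 fold change 1.27, SE 0.17, adjusted p = 0.000416). COL27A1 was at 94.8 and 93.1 CPM (log2 fold change 1.22, SE 0.24, adjusted p = 0.00501). These 3 were above both WT libraries. COL3A1 was at 89.1 and 93.7 CPM, below the WT values of 177 and 335 (log2 fold change -1.48, SE 0.29, adjusted p = 0.00498). COL2A1 was at 359 and 268 CPM, against 649 and 458 in WT (log2 fold change -0.82, SE 0.21, adjusted p = 0.0234). COL22A1 was at 26.3 and 14.6 CPM, against 45.2 and 48.7 (log2 fold change -1.17, SE 0.25, adjusted p = 0.0104). The fibrillar class was thus split, with 3 higher and 4 lower of 10. COL14A1 was at 4.20 and 9.82 CPM in WT and 1.42 and 1.77 in the line (log2 fold change -2.19, SE 0.44, adjusted p = 0.00597), COL6A3 at 4.33 and 6.26 and 1.86 and 1.03 (log2 fold change -1.77, SE 0.38, adjusted p = 0.0091), and COL12A1 at 6.72 and 7.84 and 3.13 and 3.39 (log2 fold change -1.18, SE 0.26, adjusted p = 0.0117). COL21A1 was at 18.99 and 15.7 CPM against 6.28 and 10.9 in WT (log2 fold change 1.01, SE 0.24, adjusted p = 0.0182), COL23A1 at 20.4 and 16.4 against 8.23 and 11.0 (log2 fold change 0.94, SE 0.19, adjusted p = 0.00736), and COL19A1 at 83.2 and 64.7 against 34.7 and 51.8 (log2 fold change 0.78, SE 0.17, adjusted p = 0.0123). COL1A2 was lower too (log2 fold change -0.70). PCOLCE was at 33.8 ± 1.26 CPM in WT and 5.10 ± 3.15 CPM in ZEB2 shRNA cells, log2 fold change -2.62, SE 0.36, adjusted p = 0.000516. LUM, a proteoglycan that spaces fibrils, was at 56.3 ± 33.7 CPM in WT and 192 ± 17.7 CPM in ZEB2 shRNA cells, log2 fold change 1.77, SE 0.29, adjusted p = 0.00151.

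Several of these ZEB2 calls rested on 1 library. The count was 7 without ZEB2 shRNA replicate 1, 8 without ZEB2 shRNA replicate 2, 10 without WT replicate 1 and 17 without WT replicate 2. Without ZEB2 shRNA replicate 1 the calls of COL2A1 (-1.03), COL3A1 (-1.44), COL12A1 (-1.09), COL14A1 (-1.98), COL19A1 (0.59), COL21A1 (0.87) and COL23A1 (0.77) were lost. Without ZEB2 shRNA replicate 2 those of COL2A1 (-0.63), COL3A1 (-1.53), COL6A3 (-1.51), COL12A1 (-1.22), COL21A1 (1.13) and COL22A1 (-0.84) were lost. Without WT replicate 1, COL2A1 (-0.53), COL19A1 (0.53), COL21A1 (0.69) and COL23A1 (0.76) did not pass, and without WT replicate 2 COL14A1 did not (-1.44). COL5A1, COL5A2 and COL27A1 passed in each case. The endoderm marker sum was 382 to 574 CPM and the chondrogenic sum 1322 to 1444 CPM in ZEB2 shRNA cells.

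**Figure D4:**
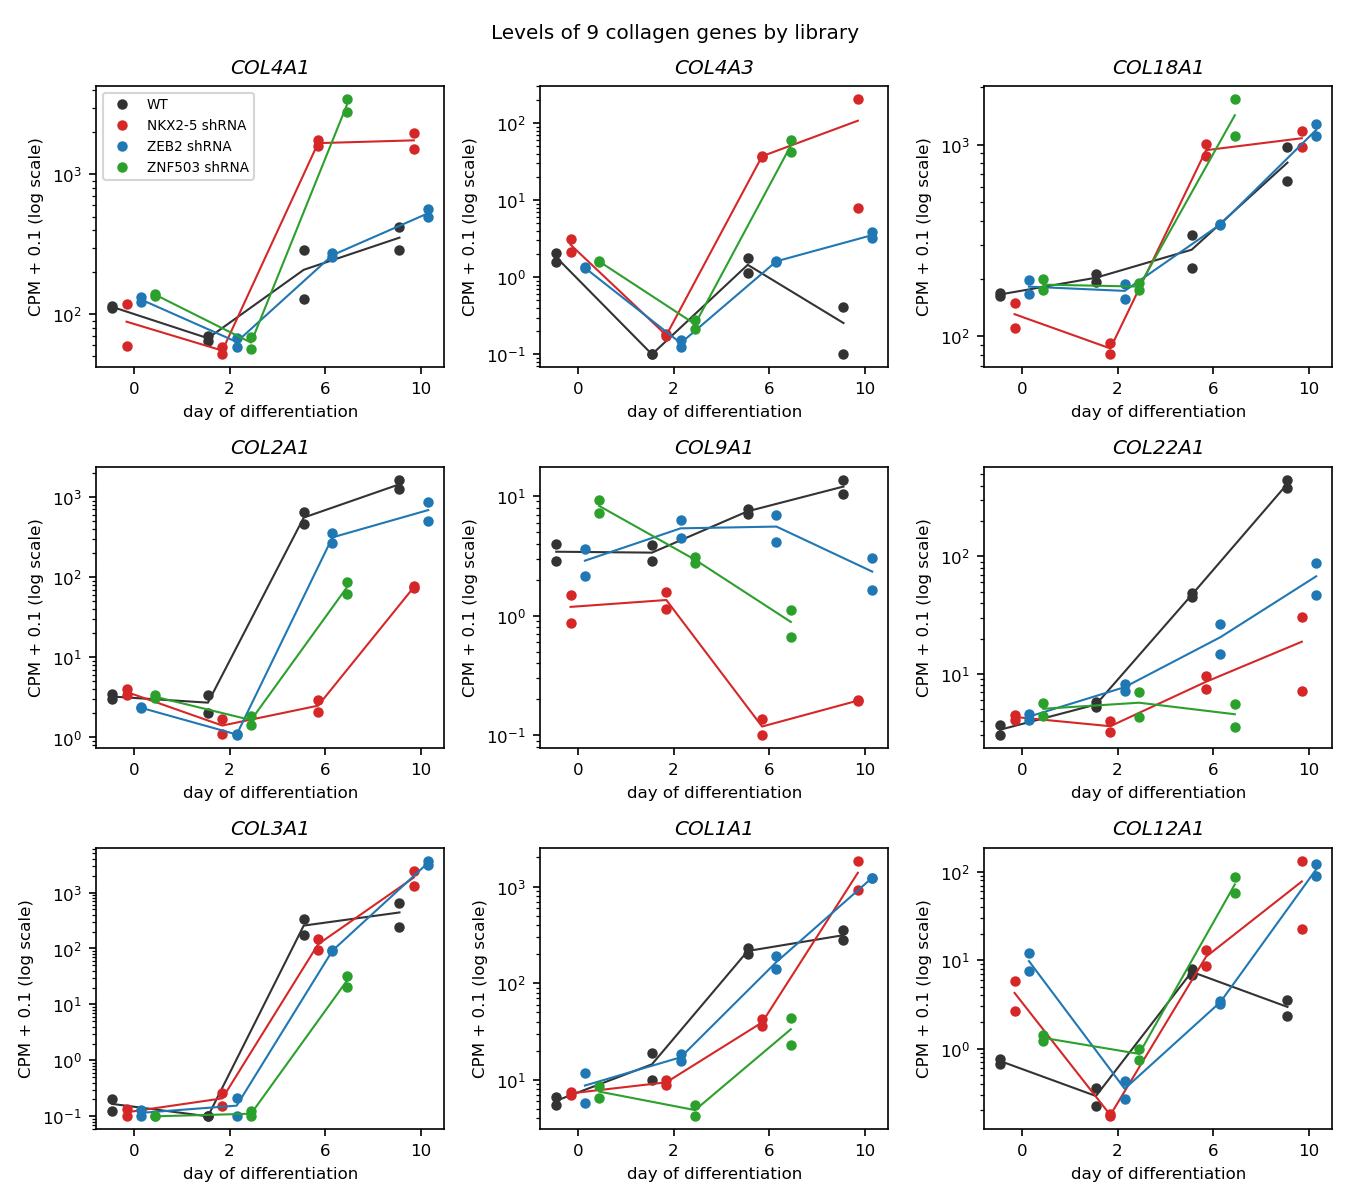
Levels of 9 collagen genes by day, as CPM + 0.1 on a log axis. Points are libraries, lines join group means, and colours mark the 4 kinds of cells. COL4A1 and COL4A3 of NKX2-5 and ZNF503 shRNA cells lie above WT at day 6, COL2A1 and COL22A1 of every shRNA line lie below WT at day 6, and COL3A1 of NKX2-5 and ZEB2 shRNA cells lies above WT at day 10.

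Compared with each other at day 6, without WT, NKX2-5 and ZNF503 shRNA cells differed in 14 of 36 members, 5 higher in NKX2-5 and 9 lower, against 14.7% (5.92% higher and 8.81% lower) of all genes. COL2A1 differed most among those named (log2 fold change -4.92, SE 0.27, adjusted p = 2.30e-06), and then COL12A1 (log2 fold change -2.72, SE 0.23, adjusted p = 5.25e-05), COL9A3 (log2 fold change -1.91, SE 0.21, adjusted p = 0.000148) and COL11A1 (log2 fold change -1.81, SE 0.19, adjusted p = 0.000130), all lower in NKX2-5 shRNA cells. COL9A3 was at 32.4 and 46.3 CPM in NKX2-5 and 179 and 118 in ZNF503 shRNA cells, and COL11A1 at 11.3 and 15.9 and 51.7 and 44.3. COL3A1 was higher in NKX2-5 shRNA cells, at 92.1 and 146 CPM against 32.6 and 20.0 (log2 fold change 2.18, SE 0.30, adjusted p = 0.000694), and so was COL5A2, at 18.3 and 21.7 against 11.4 and 9.64 (log2 fold change 0.93, SE 0.19, adjusted p = 0.00678). COL7A1 was at 66.0 and 77.5 CPM in NKX2-5 and 18.8 and 15.9 in ZNF503 shRNA cells (log2 fold change 2.05, SE 0.29, adjusted p = 0.000817), so the values of the lines did not overlap. Among type IV genes COL4A1 (log2 fold change -0.90, SE 0.26, adjusted p = 0.0366) and COL4A2 (log2 fold change -0.85, SE 0.24, adjusted p = 0.0339) were lower in NKX2-5, COL9A2 was lower at 4.71 and 7.57 against 19.4 and 12.5 CPM (log2 fold change -1.36, SE 0.32, adjusted p = 0.0154), and COL19A1 was higher at 301 and 265 against 174 and 198 (log2 fold change 0.60, SE 0.17, adjusted p = 0.0352). The count was 9 without NKX2-5 shRNA replicate 2, 8 without ZNF503 shRNA replicate 1 and 16 without ZNF503 shRNA replicate 2. The calls of COL4A1 and COL19A1 were lost without any 1 of the 4 libraries, with values from -1.05 to -0.74 and from 0.51 to 0.71. COL4A2 did not pass without NKX2-5 replicate 1 (-0.81) or 2 (-0.88) or ZNF503 replicate 1 (-0.57), COL9A2 without NKX2-5 replicate 1 (-1.07) or ZNF503 replicate 1 (-1.01), and COL5A2 without NKX2-5 replicate 2 (0.81).

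Type IV genes also differed when ZEB2 shRNA cells took the place of WT. NKX2-5 against ZEB2 shRNA cells gave 14 members higher and 14 lower of 36, with 44.4% (21.3% higher and 23.1% lower) of all genes called, and ZEB2 against ZNF503 shRNA cells gave 15 higher and 14 lower, with 49.2% (25.6% higher and 23.7% lower) called. All 6 type IV genes differed in both. Against ZEB2, NKX2-5 shRNA cells were higher in COL4A3 (log2 fold change 4.59, SE 0.24, adjusted p = 2.85e-08), COL4A4 (log2 fold change 4.21, SE 0.27, adjusted p = 1.11e-07), COL4A1 (log2 fold change 2.65, SE 0.27, adjusted p = 7.39e-06) and COL4A2 (log2 fold change 2.45, SE 0.25, adjusted p = 6.91e-06), with COL19A1 (log2 fold change 1.92, SE 0.18, adjusted p = 2.88e-06) and COL12A1 (log2 fold change 1.75, SE 0.26, adjusted p = 0.000146). They were lower in COL2A1 (log2 fold change -7.00, SE 0.28, adjusted p = 3.55e-09), COL9A1, with a ratio of ZEB2 to NKX2-5 of 420.2 (95% interval 75.4 to 16599), COL16A1 (log2 fold change -3.13, SE 0.47, adjusted p = 0.000177), COL5A2 (log2 fold change -3.03, SE 0.18, adjusted p = 7.90e-08), COL11A2 (log2 fold change -2.31, SE 0.37, adjusted p = 0.000256) and COL25A1 (log2 fold change -2.21, SE 0.23, adjusted p = 8.71e-06). COL16A1, fibril-associated, was at 0.625 and 0.721 CPM in NKX2-5 and 6.06 and 5.83 in ZEB2 shRNA cells, and COL25A1, a transmembrane collagen, at 2.83 and 2.32 and 11.7 and 11.9. COL11A2 was at 9.09 and 4.06 CPM and COL9A1 at 6.84 and 4.06 in ZEB2 shRNA cells, and COL4A3 at 1.55 and 1.47, COL4A4 at 1.25 and 2.51 and COL4A2 at 136 and 138. Without ZEB2 shRNA replicate 1 the COL4A4 value was 3.57 and that of COL11A2 -1.57. In ZEB2 against ZNF503 shRNA cells, COL4A3 (log2 fold change -5.06, SE 0.24, adjusted p = 2.21e-08), COL4A4 (log2 fold change -4.48, SE 0.27, adjusted p = 1.18e-07), COL12A1 (log2 fold change -4.47, SE 0.27, adjusted p = 1.21e-07), COL4A1 (log2 fold change -3.55, SE 0.28, adjusted p = 1.11e-06), COL4A2 (log2 fold change -3.30, SE 0.26, adjusted p = 9.84e-07) and COL18A1 (log2 fold change -1.88, SE 0.21, adjusted p = 1.69e-05) were lower. COL5A2 (log2 fold change 3.96, SE 0.20, adjusted p = 2.88e-08), COL9A1 (log2 fold change 2.81, SE 0.39, adjusted p = 0.000104), COL25A1 (log2 fold change 2.71, SE 0.25, adjusted p = 3.77e-06), COL1A1 (log2 fold change 2.34, SE 0.24, adjusted p = 1.01e-05), COL22A1 (log2 fold change 2.23, SE 0.28, adjusted p = 5.20e-05) and COL2A1 (log2 fold change 2.09, SE 0.21, adjusted p = 9.13e-06) were higher. COL18A1 was at 386 and 381 CPM and COL1A1 at 192 and 139.5 in the ZEB2 line. The ZNF503 line had COL25A1 at 2.04 and 1.62 and COL1A1 at 43.5 and 23.0. Without ZEB2 shRNA replicate 1 that COL4A4 value was -3.84.

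By day 10 the fibrillar collagens of connective tissue were above WT in both NKX2-5 and ZEB2 shRNA cells. Against WT, 19 of 37 members were higher and 10 lower in NKX2-5 shRNA cells, with 43.9% (23.3% higher and 20.6% lower) of all genes called, and 7 of 10 fibrillar genes were higher. In ZEB2 shRNA cells 13 were higher and 3 lower, against 18.2% (10.6% higher and 7.67% lower), and 6 of 10 fibrillar genes were higher. The 2 lines share the WT libraries. The sum of all 40 collagens was 12158 ± 551 CPM in NKX2-5 and 13279.8 ± 208 CPM in ZEB2 shRNA cells, against 6526 ± 133 in WT. COL3A1 was at 639.7 and 241 CPM in WT, 1318 and 2394 in NKX2-5 (log2 fold change 2.08) and 3128 and 3698 in ZEB2 shRNA cells (log2 fold change 2.95, SE 0.50, adjusted p = 0.00982). COL5A1 was at 274 and 301 CPM in WT and 1999 and 1694 in ZEB2 shRNA cells (log2 fold change 2.68, SE 0.23, adjusted p = 0.00201), and was higher in NKX2-5 shRNA cells at 614 and 751 (log2 fold change 1.25). COL12A1 was at 3.45 and 2.26 CPM in WT, 133 and 22.2 in NKX2-5 (log2 fold change 4.74, SE 0.83, adjusted p = 0.00416) and 124 and 89.7 in ZEB2 shRNA cells (log2 fold change 5.17, SE 0.85, adjusted p = 0.00854). Each shRNA library lay above both WT libraries in these genes. COL6A3, the large type VI chain, was at 24.4 and 8.82 CPM in WT, 197 and 107 in NKX2-5 (log2 fold change 3.18, SE 0.50, adjusted p = 0.0026) and 206 and 248 in ZEB2 shRNA cells (log2 fold change 3.74, SE 0.51, adjusted p = 0.0048). COL19A1 was at 1.49 and 0.645 CPM in WT, 10.7 and 14.2 in NKX2-5 (log2 fold change 3.45, SE 0.45, adjusted p = 0.00135) and 15.1 and 23.0 in ZEB2 shRNA cells (log2 fold change 4.05, SE 0.46, adjusted p = 0.00303). COL9A2 was higher in ZEB2 shRNA cells, at 6.86 and 10.3 CPM against 1.39 and 1.08 in WT (log2 fold change 2.76, SE 0.53, adjusted p = 0.0138). COL3A1 led per kilobase in both lines, at 338 ± 139 CPM per kb in NKX2-5 and 622 ± 73.4 in ZEB2 shRNA cells.

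Many of the day 10 values depended on single libraries. The ZEB2 count of 16 fell to 6 without ZEB2 replicate 3, 4 without ZEB2 replicate 4, 5 without WT replicate 3 and 4 without WT replicate 4. With the replicate number as a block, in a fit that also left out the NKX2-5 shRNA libraries, it rose to 29. The parts of the block and of the libraries left out were not told apart. Of the 9 ZEB2 members given with values, COL5A1, COL6A3 and COL19A1 passed in each case, and without WT replicate 3 COL6A3 was 4.68, COL19A1 4.87 and COL3A1 3.82. COL3A1 did not pass without ZEB2 replicate 4 (2.83) or WT replicate 4 (2.42), nor COL12A1 without WT replicate 3 (5.55) or 4 (4.95). COL9A2 did not pass without any 1 of the libraries (2.46 to 3.04). The NKX2-5 count was 19 without WT replicate 4. COL12A1 was 2.90 without NKX2-5 replicate 1 and 5.50 without replicate 2, and did not pass without WT replicate 4 (4.51). Without WT replicate 3 COL6A3 was 4.12 and COL19A1 4.27, and COL3A1 was 2.95.

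Type IV stayed higher in NKX2-5 shRNA cells at day 10, with 5 of 6 genes called, and 0 of 6 were called in ZEB2 shRNA cells by edgeR. Of the 6 in ZEB2 shRNA cells, 1 was higher and 0 lower at an unadjusted p under 0.05, and 1 was higher and 0 lower by DESeq2. With 18.2% of all genes called there, 0 of 6 alone does not set type IV apart. COL4A3 was at 3.09 and 3.75 CPM in ZEB2 shRNA cells and 0.309 and 0 in WT, a ratio of 16.4 (95% interval 7.52 to 44.6). COL4A4 was at 1.61 and 2.35 CPM in ZEB2 shRNA cells and 0.258 and 0.645 in WT. COL4A1 was at 419 and 287 CPM in WT, 1985 and 1520.0 in NKX2-5 (log2 fold change 2.32) and 563 and 493 in ZEB2 shRNA cells (log2 fold change 0.57, SE 0.26, adjusted p = 0.171). COL4A3 was at 0.309 and 0 CPM in WT and 207 and 7.80 in NKX2-5 shRNA cells, a ratio of 513 (95% interval 236 to 1398) over 6 and 0 counts in WT. COL4A4 was at 0.258 and 0.645 CPM in WT and 142 and 8.46 in NKX2-5 shRNA cells (log2 fold change 7.56, SE 1.47, adjusted p = 0.0061). For both, NKX2-5 replicate 1 was far above replicate 2. The fitted COL4A3 value of 9.02 (SE 1.81) was 5.23 without NKX2-5 replicate 1 and 9.94 without replicate 2, and did not pass without WT replicate 3 (14.18) or 4 (8.44). That of COL4A4 was 4.40 and 8.50 without NKX2-5 replicates 1 and 2, and did not pass without WT replicate 3 (6.87) or 4 (8.19). COL24A1, a minor fibrillar chain, was at 2.84 and 2.04 CPM in WT and 108 and 33.0 in NKX2-5 shRNA cells (log2 fold change 4.83, SE 0.60, adjusted p = 0.00111), with 3.72 and 5.43 without NKX2-5 replicates 1 and 2. COL14A1, at 196 and 36.3 CPM (log2 fold change 2.02), was 0.34 without NKX2-5 replicate 1. The same library, NKX2-5 replicate 1, was the higher of the pair in COL4A3, COL4A4, COL24A1, COL12A1 and COL14A1.

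COL2A1, COL9A1 and COL22A1 were lower in both lines at day 10. COL2A1 was at 1242 and 1639 CPM in WT, 72.5 and 77.2 in NKX2-5 (log2 fold change -4.26, SE 0.34, adjusted p = 0.000279) and 874 and 499 in ZEB2 shRNA cells (log2 fold change -1.08, SE 0.30, adjusted p = 0.0476). COL9A1 was at 13.6 and 10.2 CPM in WT and had 2 and 2 counts in NKX2-5 shRNA cells, a ratio of WT to NKX2-5 of 125 (95% interval 48.9 to 459), and was at 2.93 and 1.54 CPM in ZEB2 shRNA cells (log2 fold change -2.41, SE 0.43, adjusted p = 0.0113). COL22A1 was at 382 and 449 CPM in WT, 7.11 and 30.3 in NKX2-5 (log2 fold change -4.48, SE 0.67, adjusted p = 0.00217) and 88.1 and 47.2 in ZEB2 shRNA cells (log2 fold change -2.63, SE 0.61, adjusted p = 0.0271). All shRNA libraries lay below WT. Other collagens of cartilage went other ways: in ZEB2 shRNA cells COL9A2 was higher, as above, and so were COL9A3 (log2 fold change 1.11) and COL27A1 (log2 fold change 1.30), the latter also in NKX2-5 shRNA cells (log2 fold change 2.57). Neither ZEB2 call held without any 1 of the 4 libraries, with values from 0.93 to 1.31 and from 1.12 to 1.51. COL11A2 was at 57.9 and 64.3 CPM in WT, 3.63 and 2.599 in NKX2-5 (log2 fold change -4.29, SE 0.42, adjusted p = 0.000511) and 42.7 and 19.8 in ZEB2 shRNA cells (log2 fold change -0.97, SE 0.36, adjusted p = 0.106). In NKX2-5 shRNA cells COL16A1 was at 12.5 and 12.4 CPM, against 54.4 and 49.0 in WT (log2 fold change -2.05, SE 0.22, adjusted p = 0.000699), and COL13A1 at 2.05 and 13.4, against 43.97 and 48.7 (log2 fold change -2.59, SE 0.70, adjusted p = 0.0208). COL13A1 was -1.79 and -4.48 without NKX2-5 replicates 1 and 2 and did not pass without WT replicate 3 (-2.66) or 4 (-2.50). COL22A1 was -3.77 and -5.85 without the same NKX2-5 libraries. In ZEB2 shRNA cells COL2A1 (-1.53 to -0.72), COL9A1 (-2.95 to -2.02) and COL22A1 (-3.14 to -2.24) did not pass without any 1 of the 4 libraries. The other 17 members called in NKX2-5 shRNA cells ranged from -2.04 (COL25A1) to 2.64 (COL15A1), and the other 6 named in ZEB2 shRNA cells from 1.11 (COL9A3) to 1.97 (COL1A1).

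The proteins that decorate fibrils moved with the fibrillar collagens at day 10, with 6 of 7 genes tested higher in each line. Of all genes, 23.3% were higher in NKX2-5 and 10.6% in ZEB2 shRNA cells. LUM was at 72.9 ± 66.2 CPM in WT and 582 ± 243 CPM in NKX2-5 shRNA cells, log2 fold change 2.99, SE 0.65, adjusted p = 0.00942. POSTN, which encodes periostin, was at 8.82 ± 4.87 CPM in WT and 156 ± 46.0 CPM in ZEB2 shRNA cells, log2 fold change 4.11, SE 0.42, adjusted p = 0.00237. DCN, which encodes decorin, rose by 5.04 and 5.28 in NKX2-5 and ZEB2 shRNA cells. ADAMTS2, which removes the N-terminal propeptide of fibrillar procollagens, was at 7.21 ± 1.68 CPM in WT and 36.0 ± 0.306 CPM in ZEB2 shRNA cells, log2 fold change 2.30, SE 0.35, adjusted p = 0.0071. The laminin chain LAMA4 was lower in both, with log2 fold changes of -4.92 and -4.23. The sum of 6 fibroblast and mesenchyme markers was 247 to 272 CPM in WT, 273 to 292 in NKX2-5 and 308 to 406 in ZEB2 shRNA cells, and most of it was PDGFRA, called in neither. PDGFRB was higher in both lines, at 12.7 ± 5.69 CPM in WT, 76.8 ± 15.7 in NKX2-5 and 43.6 ± 0.328 in ZEB2 shRNA cells. THY1 was higher too, at 4.63 ± 1.69, 11.0 ± 0.565 and 22.6 ± 1.35 CPM, and TCF21 in ZEB2 shRNA cells, at 9.38 ± 0.425 against 2.28 ± 0.788 CPM, while PRRX1 was lower in NKX2-5 shRNA cells. Of the endothelial markers PECAM1, CDH5 and TIE1 were higher in both lines, and in NKX2-5 shRNA cells ERG was higher and KDR lower. The sum of the 5 endothelial markers was 337 to 414 CPM in WT, 124 to 150 in NKX2-5 and 343 to 405 in ZEB2 shRNA cells. The endoderm sum was 1704 to 4272 CPM in WT, 29909.7 to 41475 in NKX2-5 and 8103 to 9529 in ZEB2 shRNA cells, and the cardiomyocyte sum 13488 to 16504, 54.5 to 350.2 and 3867 to 5648 CPM. The sum of 5 blood markers was 12.6 to 63.6 CPM in WT, 1415 to 1623 in NKX2-5 and 9.11 to 11.99 in ZEB2 shRNA cells, with GATA1 at 0 counts in the last. The chondrogenic sum was 164 to 178 CPM in WT, 133 to 213 in NKX2-5 and 435 to 548 in ZEB2 shRNA cells. SOX9 and ACAN were higher in NKX2-5 and ACAN, MATN3 and HAPLN1 in ZEB2 shRNA cells, with 0 of the list lower. The part of these cells was not tested.

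**Figure D5:**
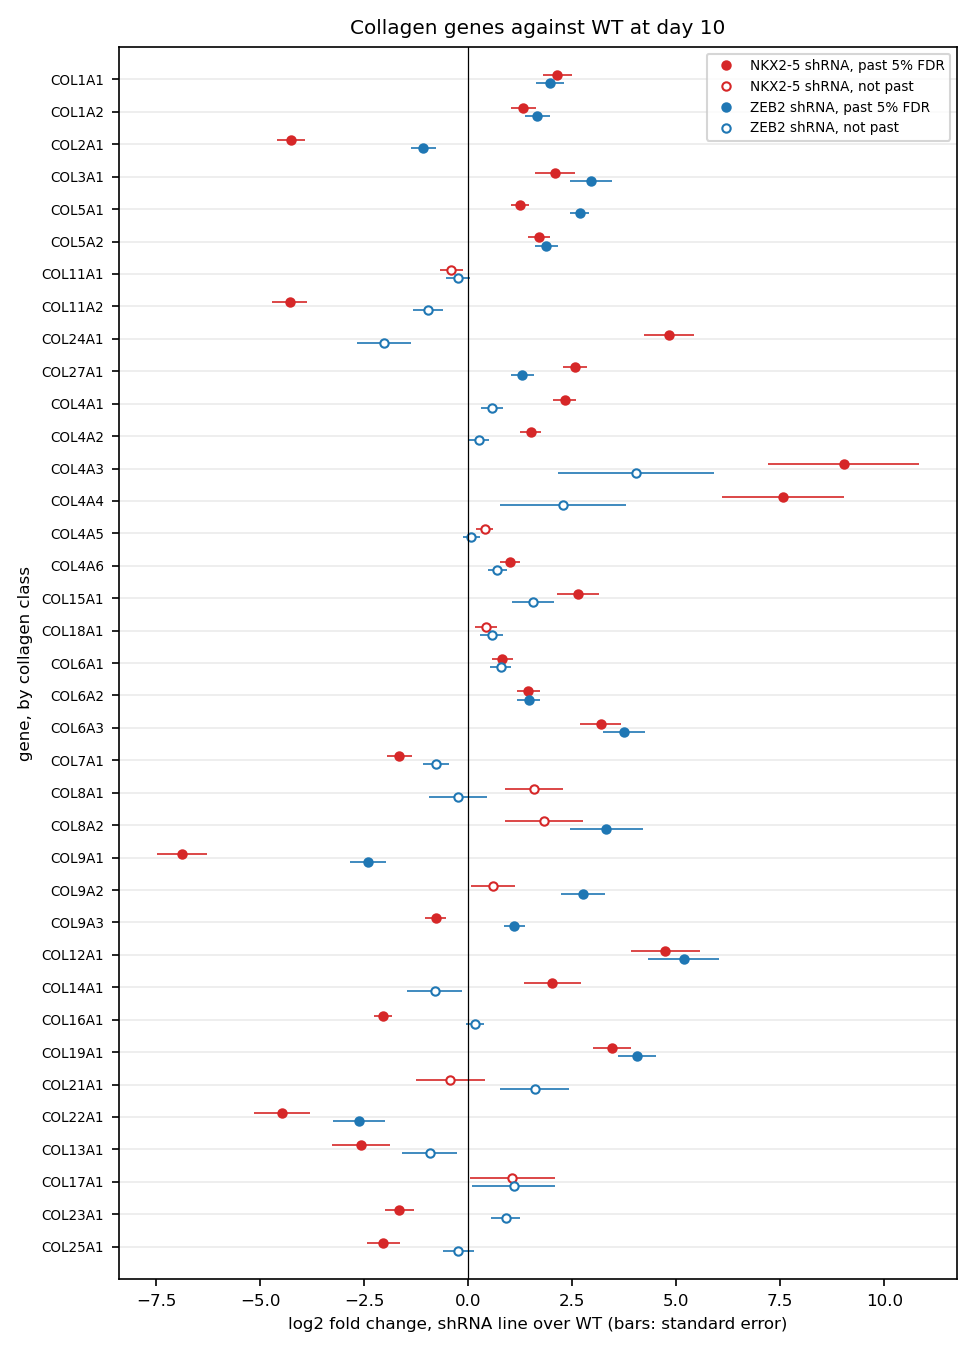
Log2 fold change of NKX2-5 and ZEB2 shRNA cells over WT at day 10 for the members tested, by class, with bars of 1 standard error. Filled points passed 5% FDR and open points did not. Fibrillar points such as COL1A1, COL3A1 and COL5A1 lie right of 0 in both lines, and the widest bars are those of COL4A3 and COL4A4.

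Tested directly at day 10, NKX2-5 and ZEB2 shRNA cells differed in 16 of 37 members, 7 higher in NKX2-5 and 9 lower, against 21.3% (10.5% higher and 10.8% lower) of all genes. COL24A1 was at 108 and 33.0 CPM in NKX2-5 and 0.618 and 0.597 in ZEB2 shRNA cells (log2 fold change 6.86, SE 0.66, adjusted p = 0.00171). COL14A1 was at 196 and 36.3 and 17.2 and 15.8 CPM (log2 fold change 2.83, SE 0.69, adjusted p = 0.0289), and COL27A1 at 777 and 483 and 267 and 257 (log2 fold change 1.28, SE 0.28, adjusted p = 0.0202). Of type IV, COL4A4 (log2 fold change 5.28, SE 1.19, adjusted p = 0.0229), COL4A3 (log2 fold change 4.99, SE 1.31, adjusted p = 0.0354) and COL4A1 (log2 fold change 1.74, SE 0.27, adjusted p = 0.00744) were higher in NKX2-5 shRNA cells, with COL4A4 at 1.61 and 2.35 and COL4A3 at 3.09 and 3.75 CPM in ZEB2 shRNA cells. COL2A1, COL11A2, COL9A2 and COL9A3 were lower in NKX2-5 shRNA cells, and COL27A1 was higher, as above. COL2A1 (log2 fold change -3.18, SE 0.33, adjusted p = 0.00202) and COL11A2 (log2 fold change -3.31, SE 0.41, adjusted p = 0.00357) differed most, with the values given above. COL9A2 was at 1.14 and 2.65 and 6.86 and 10.3 CPM (log2 fold change -2.16, SE 0.50, adjusted p = 0.0239), and COL9A3 at 11.6 and 15.9 and 56.0 and 47.1 (log2 fold change -1.89, SE 0.26, adjusted p = 0.00479). COL23A1 was at 5.63 and 12.1 and 52.9 and 51.7 CPM (log2 fold change -2.55, SE 0.36, adjusted p = 0.00538), and COL16A1 at 12.5 and 12.4 and 66.2 and 50.2 (log2 fold change -2.21, SE 0.22, adjusted p = 0.00192). The genes given here with a fold change were picked by this test, so that the libraries of the lines did not overlap in them adds no support. The count was 6 without ZEB2 replicate 3 and 7 without ZEB2 replicate 4. Without NKX2-5 replicate 1 COL4A3 was 1.196 and did not pass, COL4A4 was 2.11, COL14A1 1.14 and COL24A1 5.75. Without NKX2-5 replicate 2 these 4 were 5.94, 6.201, 3.58 and 7.47, COL9A2 was -2.88 and COL23A1 -3.20. Without ZEB2 replicate 3 or 4, COL4A3, COL4A4, COL14A1, COL4A1, COL27A1 and COL9A2 did not pass, nor did COL9A3 without ZEB2 replicate 3, at 4.85, 5.01, 2.89, 1.83, 1.30, -2.43 and -1.77 without replicate 3. COL11A2 was -2.66 without it.

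Chains of 1 collagen did not keep a fixed ratio over the days. Per kilobase, the ratio of COL1A1 to COL1A2, chains found 2 to 1 in type I collagen, was 0.107 and 0.158 in the WT libraries at day 0, 0.144 and 0.0706 at day 2, 1.04 and 0.936 at day 6 and 0.796 and 1.47 at day 10. It was highest in NKX2-5 shRNA cells at day 10, at 1.66 and 2.04. Early libraries thus held far more COL1A2 than COL1A1, in every line, with the ratio between 0.0878 and 0.176 over the day 0 libraries and between 0.0706 and 0.151 over the day 2 libraries. COL4A1 to COL4A2 was 1.04 and 1.09 in WT at day 0, 1.78 and 2.02 at day 6 and 0.888 and 0.605 at day 10, and 2.13 and 2.23 in NKX2-5 and 2.14 and 2.44 in ZNF503 shRNA cells at day 6. COL4A5 to COL4A6 fell from 4.40 and 4.23 in WT at day 0 to 2.26 and 1.63 at day 6, and was 1.199 and 1.17 in NKX2-5 and 0.989 and 1.04 in ZNF503 shRNA cells at day 6. COL6A1 to COL6A2 was 3.38 and 3.35 in WT at day 2 and 0.945 and 1.11 at day 6. These are descriptions of RNA levels, with no test, and rest on the length of 1 transcript per gene.

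Of the 40 members, 35 reached a group mean of 5 CPM. The 5 others were COL5A3 (highest group mean 0.622 ± 0.117 CPM, SD, n = 2, in ZNF503 shRNA cells at day 0), COL8A2 (3.44 ± 0.640, the same group), COL10A1 (0.174 ± 0.0377 in NKX2-5 shRNA cells at day 6), COL17A1 (0.977 ± 0.329 in ZEB2 shRNA cells at day 2) and COL20A1 (0.406 ± 0.120 in WT at day 2). COL10A1, a chain of growth-plate cartilage, was tested in no comparison. COL15A1, a multiplexin, was highest in NKX2-5 shRNA cells at day 10, at 5.63 and 13.1 CPM, and COL8A1 in the same group, at 2.58 and 8.74 CPM. COL24A1, under 5 CPM at day 6, was lower than WT in all 3 lines, with log2 fold changes of -4.21, -2.17 and -5.43 in NKX2-5, ZEB2 and ZNF503 shRNA cells, and the ZEB2 call was lost without ZEB2 replicate 1 (-1.85) or WT replicate 1 (-1.82). COL15A1 was at 3.55 and 0.722 CPM in WT at day 6, 0.184 and 0.160 in NKX2-5, 0.350 and 0.369 in ZEB2 and 0.356 and 0.608 in ZNF503 shRNA cells, so WT replicate 1 stood apart. Its log2 fold changes of -3.58, -2.53 and -2.07 were -2.07, -1.003 and -0.56 without that library, and the ZEB2 and ZNF503 calls were lost then and without either library of the line. COL17A1, a collagen of epithelial hemidesmosomes, was higher at day 6 in NKX2-5 (2.27) and ZNF503 shRNA cells (2.55), at levels under 1 CPM, and both calls were lost without either library of the line or without WT replicate 1 (1.59 and 1.87), with 7.02 and 7.29 without WT replicate 2.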

How the data were processed

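Total RNA was sequenced from 34 libraries, of which 30 were used. The authors aligned stranded paired-end reads to hg19 with TopHat2 2.0.14 (Bowtie2 2.2.1.0, SAMtools 0.1.19.0), keeping 1 best hit with up to 2 mismatches, and deposited raw read counts per RefSeq gene, counted with RSeQC. The sources used here do not state whether counting used strand. Of 41627 accessions, 40285 (96.8%, holding 97.1% of counts) were matched to 23189 symbols, and the row with the largest total stood for a symbol. At day 10, replicates 1 and 2 of WT and of the ZEB2 line were not used, because their columns held 1077 more values than there are accessions and did not follow the accessions (median Spearman correlation with replicate 3 of 0.00792 to 0.0131, against 0.984 and 0.993 for replicate 4).

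Counts were tested with edgeR 4.0.16 (quasi-likelihood test, TMM factors, filterByExpr, prior count 0.125) in R 4.3.3, p-values adjusted by Benjamini-Hochberg across every gene tested and a threshold of 5% FDR. Libraries of 1 day, or of WT over days, shared a fit with its own TMM factors, so fold changes can differ slightly from ratios of the printed CPM. Levels per kilobase use 1 canonical transcript per gene (GENCODE, GRCh37), which need not be the isoform expressed. The script was tested on simulated counts. The study calls the replicates biological, but the labels do not say that they came from separate cultures. The p-values thus measure the spread between these libraries, which may be technical. Intervals cover counting error only.

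Members called and at a group mean of 5 CPM or more were named, and where over 12 met this the 6 largest rises and the 6 largest falls were given in full. Members named as called were picked by the test, so libraries that do not overlap in them add no support. The 40 members, the 6 pathway lists and the 8 marker lists were chosen with earlier results of these data known. Promoter sequences were matched by symbol to RefSeq (GRCh38.p14) for 29 of 40 members. Alternatives were RLE factors, DESeq2 1.42.0, no filter on low counts, all rows of a symbol added up, 1 fit of all libraries, the replicate number as a block, the fold and FDR thresholds of the study, and leaving out each library in turn.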

Additional observations from a re-analysis of the deposited data

Results flagged for a closer look

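The change from day 0 to day 6 was compared between each shRNA line and WT with an interaction term in edgeR's quasi-likelihood test, so that a difference already present at day 0 is taken out. The values below are differences between 2 log2 changes, the change in the line minus the change in WT. All 3 lines were set against the same WT libraries. The change differed from that in WT for 24 of 38 members in the NKX2-5 line (10 in the positive and 14 in the negative direction, with 41.1% of all genes past 5% FDR), for 7 in ZEB2 shRNA cells (2 and 5, with 7.12%) and for 29 in ZNF503 shRNA cells (13 and 16, with 39.3%).

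In NKX2-5 shRNA cells the type IV genes rose more from day 0 to day 6 than in WT, by 4.18 for COL4A3, 3.84 for COL4A4, 3.36 for COL4A1 and 3.31 for COL4A2 (SE 0.31 to 0.36 for the last and the first), and COL27A1 by 2.12 (SE 0.33). The COL4A1 value was 3.95 without NKX2-5 shRNA day 0 replicate 2 and 4.03 without WT day 6 replicate 2. The change was more negative for COL2A1 (-8.02, SE 0.34), COL9A1 (-7.28, SE 0.94), COL13A1 (-3.54, SE 0.44), COL11A2 (-3.42, SE 0.50), COL22A1 (-2.85, SE 0.37) and COL1A2 (-2.76, SE 0.37). COL9A1 was -9.80 without NKX2-5 shRNA day 6 replicate 1 and -5.96 without replicate 2, where the counts were 1 and 0. COL19A1 had 0 and 0 counts in NKX2-5 shRNA cells at day 0, so its fitted value of 7.77 (SE 1.94) depends on the prior count of the model. It was 8.75 without WT day 0 replicate 1, and 2.69 and no longer past the threshold without replicate 2.

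In ZNF503 shRNA cells the same test gave 5.39 for COL4A3 (SE 0.37), 4.27 for COL4A4 (SE 0.37), 3.63 for COL4A1 (SE 0.40), 3.26 for COL4A2 (SE 0.31) and 2.32 for COL12A1 (SE 0.57). COL4A1 was 4.29 without WT day 6 replicate 2. The change was more negative for COL9A1 (-4.48, SE 0.54), COL22A1 (-3.99, SE 0.38), COL11A2 (-3.68, SE 0.50), COL1A2 (-3.41, SE 0.38), COL14A1 (-3.29, SE 0.46) and COL13A1 (-3.24, SE 0.46). COL14A1 was -2.55 without WT day 6 replicate 2 and COL13A1 -3.91 without ZNF503 shRNA day 6 replicate 2. COL19A1, with 0 and 0 counts in ZNF503 shRNA cells at day 0, had a fitted value of 7.17 (SE 1.87), which was 8.15 without WT day 0 replicate 1, and 2.09 and no longer past the threshold without WT day 0 replicate 2.

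In ZEB2 shRNA cells the change was more negative for COL12A1 (-5.13, SE 0.53), which was above WT at day 0 and below it at day 6, and for COL6A3 (-2.56, SE 0.46), COL14A1 (-2.28, SE 0.43) and COL22A1 (-1.54, SE 0.36). It was more positive for the type V chains COL5A1 (1.39, SE 0.28) and COL5A2 (1.28, SE 0.25). COL14A1 was -1.51 without WT day 6 replicate 2 and COL6A3 -3.16 without ZEB2 shRNA day 6 replicate 1. COL22A1 did not pass without ZEB2 shRNA day 0 replicate 1 (-1.44) or WT day 0 replicate 2 (-1.39).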

How the results depend on the processing

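The counts of members called were within 1.5 times the count given with RLE factors and with DESeq2 in all 22 comparisons, and none of 369 gene values changed sign under any alternative run. Other settings kept 2073 gene values on their side of the threshold and took 72 below it, and leaving out 1 library kept 1473 and took 243 below it. With no filter on low counts the count was 7 for ZEB2 shRNA cells at day 0, 3 at day 2 and 25 at day 6. With all rows of a symbol added up it was 5 for ZNF503 shRNA cells at day 0 and 0 for ZEB2 shRNA cells at day 2. In 1 fit of all libraries it was 3 for NKX2-5, 1 for ZEB2 and 3 for ZNF503 shRNA cells at day 0, 13 for NKX2-5 and 0 for ZEB2 shRNA cells at day 2, 9 for ZEB2 shRNA cells at day 6 and 25 at day 10, and 12 for NKX2-5 against ZNF503 shRNA cells at day 2. The cause of these shifts was not tested.

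The thresholds of the study were 2-fold and 10% FDR at day 0, 4-fold and 10% at day 2, and 8-fold and 1% at days 6 and 10. They are stricter by construction at days 6 and 10. At days 0 and 2 they add a minimum fold but allow a higher FDR than the 5% used here. Against WT they left 4, 1 and 4 members in NKX2-5, ZEB2 and ZNF503 shRNA cells at day 0, 1, 0 and 3 at day 2, 9, 0 and 10 at day 6, and 10 and 3 in NKX2-5 and ZEB2 shRNA cells at day 10. In WT they left 10, 13 and 15 at days 2, 6 and 10 against day 0. Between NKX2-5 and ZNF503 shRNA cells they left 2 at day 2 and 3 at day 6, between NKX2-5 and ZEB2 shRNA cells 7 at day 6 and 4 at day 10, and between ZEB2 and ZNF503 shRNA cells 8 at day 6. For the change from day 0 to day 6 they left 10, 1 and 12 in NKX2-5, ZEB2 and ZNF503 shRNA cells.

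With 1 library left out, the counts against WT in NKX2-5, ZEB2 and ZNF503 shRNA cells ranged from 2 to 11, 1 to 2 and 0 to 2 at day 0, 17 to 20, 0 to 1 and 16 to 17 at day 2, and 24 to 26, 7 to 17 and 27 to 29 at day 6. At day 10 they ranged from 19 to 29 in NKX2-5 and 4 to 6 in ZEB2 shRNA cells. In WT they were 21 to 22, 23 to 25 and 31 to 33 at days 2, 6 and 10. NKX2-5 against ZNF503 shRNA cells gave 15 to 16 at day 2 and 8 to 16 at day 6, NKX2-5 against ZEB2 24 to 26 at day 6 and 6 to 22 at day 10, and ZEB2 against ZNF503 26 to 28. The change from day 0 to day 6 gave 22 to 27, 5 to 11 and 27 to 29.

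Between libraries with the same replicate number, the correlation of deviations lay between -0.0791 and 0.0322 over 16 comparisons. Each value was taken over 18481 genes at once, so it cannot exclude a shared effect of the replicate number on some genes. Whether the numbers pair the libraries was thus not settled. With the replicate number as a block the count was 2 for ZNF503 shRNA cells at day 0 and 29 for ZEB2 shRNA cells at day 10, and it stayed within 1.5 times in the other 17 of 19 comparisons. With 2 libraries a group and 9189943 to 29549874 counts per library at day 10, genes near the floor could not be compared closely. Folds against groups at or near 0 counts depend on the prior count.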
